A study of Mus musculus with 9 samples.

Results

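The genes described here are 9 that encode the molecules by which white blood cells hold on to and cross the vessel wall: Sele, Selp, Icam1, Vcam1, Itgal, Itgb2, Itga4, Pecam1 and Cdh5. They were chosen by name and matched by symbol to the Ensembl identifiers of the deposited count files, and all 9 were found among the 56719 genes of those files. The livers came from C57BL/6J mice in 3 groups of 3 libraries. The WT group received PBS by gavage for 4 weeks and a tail-vein injection of PBS on the day of sampling. The Con A group received the same PBS gavage and then 10 mg/kg concanavalin A (Con A) through the tail vein, a lectin from jack beans that stimulates T cells and serves as a model of immune-mediated hepatitis. The FMT-Con A group was gavaged for 4 weeks with a PBS suspension of faeces from mice with Con A-induced disease (faecal microbiota transplantation, FMT) and then received the same 10 mg/kg injection. A group with the faecal transfer and no Con A was not analysed here, so the transfer was compared only among injected mice. The time from injection to sampling is given only as the same day.

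Leukocytes leave the blood in steps. Selectins on activated endothelium (E-selectin from Sele, P-selectin from Selp) bind carbohydrate ligands and let the cells roll, integrins on the leukocyte (LFA-1, the pair of Itgal and Itgb2, and VLA-4, whose alpha chain is Itga4) then bind immunoglobulin-family ligands on the endothelium (ICAM-1 from Icam1, VCAM-1 from Vcam1) and arrest them. The cells finally pass through the endothelial junctions, where PECAM-1 (Pecam1) and VE-cadherin (Cdh5) hold neighbouring cells together. Inflammatory cytokines such as TNF and interleukin-1 induce Sele, Icam1 and Vcam1 in endothelium through NF-kappaB, while in the liver the sinusoids are known to arrest many leukocytes with little use of selectins, and hepatocytes too can make ICAM-1.

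Polyadenylated RNA was sequenced from both ends and the values are whole read counts per gene, 20513051 to 29466806 per library, given here as CPM, counts scaled by library size and TMM factor. After a filter on low counts 17704 genes were tested, and all 9 adhesion genes passed it. Nothing in the labels says whether each library is a different mouse, so the p-values refer to the spread between libraries, which may be technical. The labels give the mice as male in one field and female in another, and 4 Y-linked genes summed to 191 to 460 CPM in the 9 libraries. The 8 hepatocyte markers summed to 57600 to 68200 CPM in WT, 65200 to 76200 in Con A libraries and 43500 to 52400 in FMT-Con A, where each library was below all others. Transcripts of skeletal muscle (a list of 13 genes) summed to 45.5, 35.7 and 49.7 CPM in WT libraries 1 to 3, 8.8, 17.6 and 1810 CPM in Con A, and 15000, 1550 and 14900 CPM in FMT-Con A. FMT-Con A libraries 1 and 3 thus stood apart from library 2. Called results of the 9 genes that moved by over 1.5 times without libraries 1 and 3 are given both ways. For single genes of the other lists this was not examined. Muscle tissue has blood vessels of its own, and its part in the endothelial values was not tested. The muscle sum was at 1550 CPM or more in every FMT-Con A library and, of the others, only in Con A library 3. Fits with this sum as a covariate therefore cannot separate muscle RNA from the group, and a call lost there does not tell them apart. In bulk tissue, fewer cells of a type and less RNA per cell cannot be told apart.

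Promoter sequence is shown for the genes with the largest rises after Con A, Sele and Icam1, and for Selp, which lies beside Sele on chromosome 1 and changed much less. Each run is the 250 bases before the RefSeq transcription start (GRCm38.p6), 5′ to 3′ on the strand of the gene, which is the plus strand for all 3. They lie at chr1:164047984-164048233 (Sele), chr1:164115014-164115263 (Selp) and chr9:21015690-21015939 (Icam1), and capitals mark every match of the motifs searched.
Sele: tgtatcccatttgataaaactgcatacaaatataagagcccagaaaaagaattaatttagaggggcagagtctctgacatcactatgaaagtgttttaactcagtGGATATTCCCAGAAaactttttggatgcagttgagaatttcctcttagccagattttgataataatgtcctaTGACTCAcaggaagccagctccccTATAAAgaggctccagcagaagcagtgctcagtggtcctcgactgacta
Selp: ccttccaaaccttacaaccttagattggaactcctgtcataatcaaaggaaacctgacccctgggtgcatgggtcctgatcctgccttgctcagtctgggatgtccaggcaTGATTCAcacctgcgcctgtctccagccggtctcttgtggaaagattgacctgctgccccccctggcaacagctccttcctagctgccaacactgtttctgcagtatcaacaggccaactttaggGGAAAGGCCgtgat
Icam1: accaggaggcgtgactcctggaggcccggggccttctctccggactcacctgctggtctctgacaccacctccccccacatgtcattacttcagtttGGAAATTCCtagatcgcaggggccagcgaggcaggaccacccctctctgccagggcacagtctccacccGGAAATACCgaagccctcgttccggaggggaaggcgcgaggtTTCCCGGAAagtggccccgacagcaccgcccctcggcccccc
The motifs searched on both strands were the NF-kappaB consensus, a looser NF-kappaB-like GGNNNTTCC that was chosen after these sequences were seen, the core promoter box TATAAA, and the STAT-like TTCNNNGAA. An AP-1-like motif, TGANTCA, and the core of the interferon-response element were searched as well. The window of Sele held GGATATTCC with its first base 145 bases before the start, TTCCCAGAA overlapping it at 140, TGACTCA at 73 and TATAAA at 49. Icam1 held GGAAATTCC at 153, GGAAATACC (a match on the other strand) at 84 and TTCCCGGAA at 42, and no TATAAA. Selp held TGATTCA at 139 and GGAAAGGCC, again on the other strand, at 14. The strict NF-kappaB consensus and the interferon-response core had no match in these windows. Of all 32851 promoters of the table, 15.7% held GGNNNTTCC, 12.4% TATAAA, 7.02% TTCNNNGAA, 6.75% TGANTCA, 7.25% the NF-kappaB consensus and 2.98% the interferon-response core. A match is a description of the letters only. RefSeq promoters were matched for 4 of the 9 genes, and the fourth, Itga4, held no match of any of these motifs in its 250 bases. The others are Vcam1, Itgal, Itgb2, Pecam1 and Cdh5.

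After Con A alone, the vessel-wall adhesion molecules of the set rose in liver, as did Itgb2, and the integrin alpha chains Itgal and Itga4 did not pass the test. Sele, Selp, Icam1, Vcam1, Itgb2, Pecam1 and Cdh5 were higher in Con A than in WT, 7 of the 9 genes, and none was lower (edgeR quasi-likelihood test, Benjamini-Hochberg adjusted p under 0.05). This comparison called 63.4% of all tested genes, 32.5% as higher and 30.9% as lower. The libraries of the same 7 genes lay above WT without overlap, as 35.0% of tested genes did, while 34.8% lay below it (69.8% in all). The median log2 fold change was 1.93 over the 9 genes and 0.01 over all tested genes. With the faecal transfer before the injection, 2 of the 9, Sele and Vcam1, were lower than with Con A alone and none was higher, where 16.8% of tested genes were called, 10.6% as lower and 6.26% as higher. Without overlap, 5 of the 9 were lower (Sele, Icam1, Vcam1, Itgal and Itgb2) and none higher, against 18.8% lower and 14.0% higher of all tested genes (32.7% in all). The median log2 difference was -0.4 over the 9 genes and -0.01 over all. Against WT, 8 of the 9 were higher in FMT-Con A, Itgal being the exception, in a comparison that called 59.0% of tested genes, 31.2% as higher and 27.9% as lower, and the medians were 1.69 and 0.03. There 7 of the 9 lay above WT without overlap, as did 35.4% of tested genes, with 33.7% below WT (69.1% in all). The comparisons share the WT, Con A or FMT-Con A libraries, so their values stand side by side and are not independent.

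**Figure D1:**
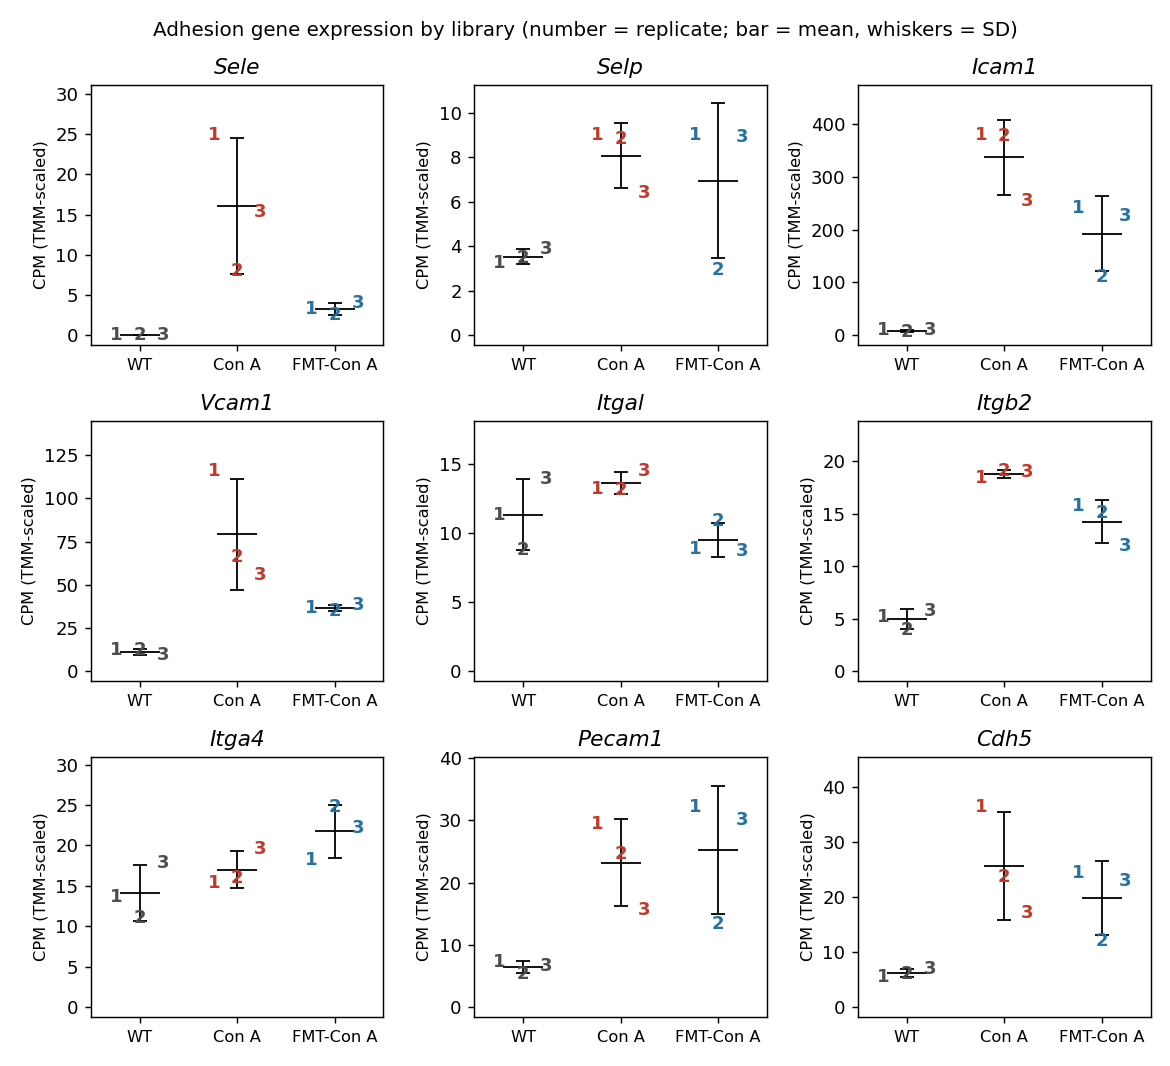
Expression of the 9 adhesion genes in each library (y axis, CPM on a linear scale from 0, 1 panel per gene) in the WT, Con A and FMT-Con A groups (x axis). Numbers are replicates, bars the mean and whiskers the SD of 3 libraries. Sele is at 0 in WT, and Icam1 reaches 255 to 379 CPM after Con A.

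Sele (ENSMUSG00000026582, chr1:164048234-164057677, plus strand) had 0 counts in all 3 WT libraries. Con A libraries 1 to 3 held 24.9, 7.96 and 15.3 CPM, and FMT-Con A libraries 3.28, 2.47 and 4.04 CPM. Every injected library was thus above every WT library, and each FMT-Con A library was below each Con A library. Against a floor of 3 counts over the WT group, expression was at least 353-fold higher in Con A (edgeR adjusted p = 1.69e-05) and at least 74.3-fold higher in FMT-Con A (adjusted p = 0.000137). Between the injected groups Sele fell by 2.29 on the log2 scale with the transfer (SE 0.41, edgeR adjusted p = 0.013). Sele was lower in FMT-Con A under all 19 alternative analyses. The call was lost without FMT-Con A library 1 (adjusted p = 0.0602), with the summed CPM of the muscle genes as a covariate (-2.24, adjusted p = 0.102), and with library 2 as the only FMT-Con A library (a log2 difference of -2.7, adjusted p = 0.146), where that lone library is assumed to vary like the other groups.

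Selp (ENSMUSG00000026580, chr1:164115264-164150026, plus strand) encodes P-selectin, which endothelium and platelets keep in granules for rapid release. It was at 3.25, 3.46 and 3.89 CPM in WT, 9.01, 8.83 and 6.38 CPM in Con A libraries and 9, 2.94 and 8.93 CPM in FMT-Con A. The Con A libraries lay above WT, but FMT-Con A was split, with libraries 1 and 3 at the level of Con A and library 2 below WT. Selp rose by 1.19 on the log2 scale in Con A over WT (SE 0.37, edgeR adjusted p = 0.017), and without WT library 1 or WT library 2 the adjusted p was 0.0586 or 0.0501. The log2 fold change of FMT-Con A over WT was 0.98 (SE 0.37, adjusted p = 0.0406) with overlapping libraries. That call was lost without any 1 of the WT libraries or without FMT-Con A library 1 or 3 (adjusted p of 0.0688 to 0.136), with the muscle covariate (0.374) and when only these groups were fitted (0.0593), and turned to -0.26 (adjusted p = 0.519) without FMT-Con A libraries 1 and 3. Between the injected groups the difference was -0.21 (SE 0.36, adjusted p = 0.714), and -1.45 without those libraries (adjusted p = 0.0883). The platelet marker list summed to 9.5 to 12.5 CPM in WT, 8.54 to 11.9 in Con A libraries and 9.88 to 12.2 in FMT-Con A, but its genes moved both ways. Of its 7 genes 3 were below the filter. In Con A against WT 2 of the 4 tested were higher, 1 was lower and 1 did not pass. The counts were the same in FMT-Con A against WT. Of all tested genes 32.5% were higher and 30.9% lower in the former, and 31.2% and 27.9% in the latter. A long non-coding gene on the other strand, Gm16548, shares 438 exon bases with Selp and went from 4.47 to 6.18 CPM in WT to 0.534 to 1.65 CPM in the injected libraries; the strand setting of the counting is not given in the sources used here, so reads of the pair cannot be told apart.

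Icam1 (ENSMUSG00000037405, chr9:21015985-21028817, plus strand), the ligand of LFA-1 and Mac-1, had the highest level per kilobase of exon of the 9 genes in every injected library. Its levels were 9.71, 6.74 and 9.15 CPM in WT, 379, 377 and 255 CPM in Con A libraries and 241, 111 and 225 CPM in FMT-Con A. The 3 groups did not overlap, with Con A at the top and FMT-Con A between. The rise over WT was 39.5-fold in Con A (log2 5.3, SE 0.35, edgeR adjusted p = 1.5e-06) and 22.5-fold in FMT-Con A (log2 4.49, SE 0.33, adjusted p = 4.89e-06). With library 2 as the only FMT-Con A library the latter was log2 3.7 (adjusted p = 3.92e-05). The difference between the injected groups, -0.81 on the log2 scale (SE 0.29), missed the threshold in edgeR (adjusted p = 0.0787) and passed it in DESeq2 (adjusted p = 0.0272) and without the filter on low counts (adjusted p = 0.0242). It was -1.6 with FMT-Con A library 2 alone (adjusted p = 0.069). An antisense gene that shares 511 exon bases with Icam1, Gm47079, had 0 to 2 counts per library.

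Vcam1 (ENSMUSG00000027962, chr3:116109949-116129688, minus strand) encodes the ligand of VLA-4. It stood at 12.1, 12 and 9.24 CPM in WT, 116, 66.1 and 55.6 CPM in Con A libraries and 36.7, 34.7 and 38.1 CPM in FMT-Con A. As for Icam1 the groups did not overlap, but here the 3 FMT-Con A libraries lay close together, library 2 included, while the Con A libraries differed among themselves by more than their distance from FMT-Con A. Vcam1 rose 7.11-fold in Con A (log2 2.83, SE 0.26, edgeR adjusted p = 1.11e-05) and 3.28-fold in FMT-Con A over WT (log2 1.71, SE 0.25, adjusted p = 0.000302; log2 2.36 with the muscle covariate). With the transfer it was 2.17-fold lower than with Con A alone (log2 -1.12, SE 0.24, adjusted p = 0.0167). This call was lost when WT was left out of the fit (adjusted p = 0.0528), without FMT-Con A library 1 or 3 (0.0685 and 0.0606), without both (log2 -1.19, adjusted p = 0.193) and with the muscle sum as a covariate (log2 -0.48, adjusted p = 0.435).

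**Figure D2:**
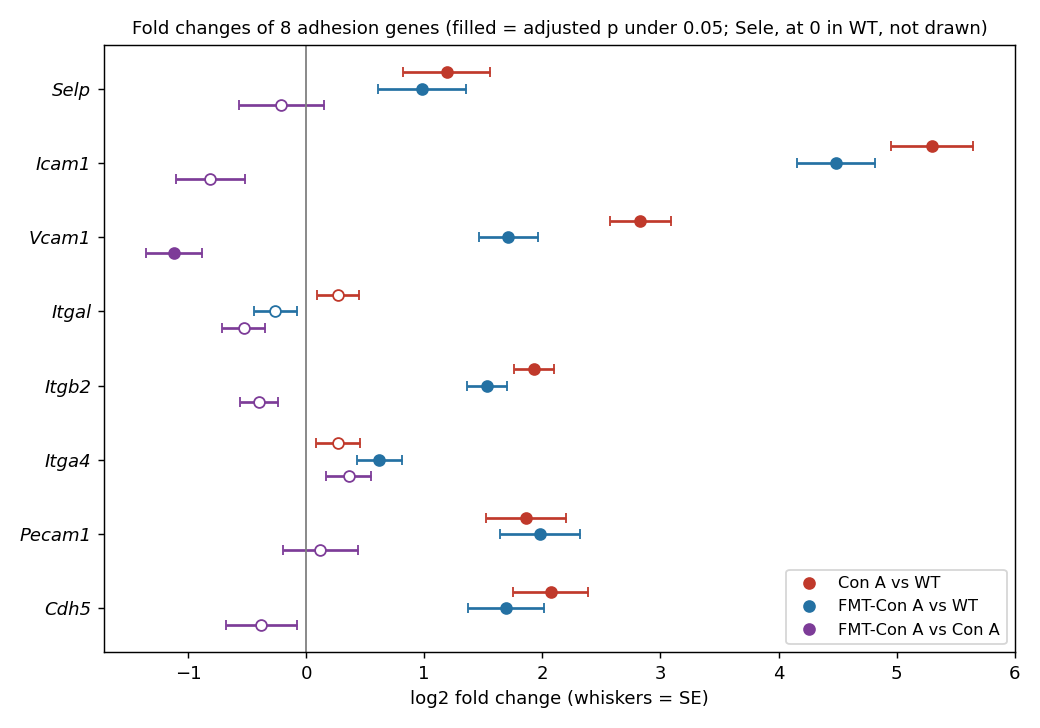
Log2 fold changes (x axis, whiskers are SE from edgeR) of 8 adhesion genes (y axis) in the 3 comparisons, filled where the adjusted p was under 0.05. Sele is not drawn because its WT libraries held 0 counts. Icam1 lies farthest from 0 against WT, at 5.3 in Con A, and Vcam1 is the only gene drawn that passed between the injected groups.

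On the leukocyte side, Itgb2 (ENSMUSG00000000290, chr10:77530252-77565708, plus strand) is the beta-2 chain shared by LFA-1, Mac-1 and related integrins, and Itgal (ENSMUSG00000030830, chr7:127296260-127335138, plus strand) is the alpha chain of LFA-1 alone. Itgb2 was at 5.13, 3.93 and 5.77 CPM in WT, 18.4, 19.1 and 19 CPM in Con A libraries and 15.7, 15.1 and 11.9 CPM in FMT-Con A. The Con A libraries were nearly equal, and the 3 groups did not overlap. Itgb2 rose by 1.93 on the log2 scale in Con A (SE 0.17, edgeR adjusted p = 9.27e-06) and by 1.53 in FMT-Con A over WT (SE 0.17, adjusted p = 5.44e-05). The difference between the injected groups was -0.4 (SE 0.16, adjusted p = 0.113).

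Itgal gave a different picture, with 11.3, 8.75 and 13.9 CPM in WT, 13.2, 13.1 and 14.5 CPM in Con A libraries and 8.81, 10.9 and 8.7 CPM in FMT-Con A. WT overlapped both injected groups, while the FMT-Con A libraries lay below all 3 Con A libraries. No comparison of Itgal passed in edgeR: its log2 values were 0.27 for Con A over WT (SE 0.18, adjusted p = 0.218), -0.26 for FMT-Con A over WT (SE 0.18, adjusted p = 0.235) and -0.53 between the injected groups (SE 0.18, adjusted p = 0.0705). DESeq2 gave an adjusted p of 0.0469 for the last.

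Itga4 (ENSMUSG00000027009, chr2:79255426-79333123, plus strand), the alpha-4 chain of VLA-4, was at 13.6, 11 and 17.8 CPM in WT, 15.4, 16 and 19.6 CPM in Con A libraries and 18.2, 24.8 and 22.2 CPM in FMT-Con A. It was the one integrin chain of the set with its highest mean in FMT-Con A, although Con A overlapped both other groups. Itga4 rose by 0.62 on the log2 scale in FMT-Con A over WT (SE 0.19, edgeR adjusted p = 0.0184). Without WT library 1, WT library 2 or FMT-Con A library 2 the adjusted p was 0.0677, 0.0763 or 0.0582, and with the muscle covariate 0.321. The values were 0.27 for Con A over WT (SE 0.19, adjusted p = 0.25) and 0.36 between the injected groups (SE 0.19, adjusted p = 0.217). Cerkl, on the opposite strand, shares 1124 exon bases with Itga4 and had 1.45 to 2.8 CPM in WT, 4.75 to 10.1 in Con A libraries and 5.9 to 6.48 in FMT-Con A, so part of the Itga4 counts is uncertain.

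Some lists of white-cell markers differed between the same groups, and others overlapped. The 6 B cell genes summed to 4.9 to 6.31 CPM in WT, 3.52 to 5.68 in Con A libraries and 3.38 to 6.31 in FMT-Con A. The 6 pan-leukocyte genes summed to 82.2 to 98 CPM in WT, 246 to 329 in Con A libraries and 138 to 165 in FMT-Con A, and none was at 0 in any library. In Con A against WT all 6 were higher. In FMT-Con A against WT 3 were higher, none was lower and 3 did not pass, beside 31.2% higher and 27.9% lower of all tested genes. Lcp1, an actin-bundling protein, made up 193 ± 47.5 CPM of the Con A sum (SD, n = 3). Ptprc, among those that did not pass, differed by -0.01 on the log2 scale between FMT-Con A and WT (edgeR adjusted p = 0.963), where the list median was 0.61. The 11 genes that mark neutrophils, cells rich in beta-2 integrins, summed to 9.64 to 15.1, 288 to 490 and 213 to 343 CPM. The 12 T and NK cell genes, from cells that carry LFA-1 and VLA-4, summed to 10.3 to 11.9, 14 to 26.9 and 9.77 to 13.3 CPM, with FMT-Con A overlapping WT. In Con A against WT 6 of them were higher, 1 was lower, 4 did not pass and 1 was below the filter. Of all tested genes 32.5% were higher and 30.9% lower there. The 10 monocyte and macrophage genes moved both ways, 3 of them higher, 5 lower and 2 not past the threshold in Con A against WT. Their sum, in which the Kupffer cell genes Clec4f and Cd5l weighed most, went from 183 to 267 CPM in WT to 135 to 174 in Con A libraries and 63.9 to 115 in FMT-Con A. The part of these markers in the integrin values was not tested.

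At the junctions, Pecam1 (ENSMUSG00000020717, chr11:106654217-106750628, minus strand) encodes PECAM-1, also found on platelets and leukocytes. It was at 7.28, 5.34 and 6.56 CPM in WT, 29.4, 24.6 and 15.6 CPM in Con A libraries and 32.2, 13.4 and 30.1 CPM in FMT-Con A. Both injected groups lay above WT and overlapped each other. Pecam1 rose 3.62-fold in Con A (log2 1.86, SE 0.34, edgeR adjusted p = 0.000902) and 3.95-fold in FMT-Con A (log2 1.98, SE 0.34, adjusted p = 0.000761) over WT, and differed by 0.12 between them (SE 0.32, adjusted p = 0.814). The sign of that last value turned without Con A library 3 (-0.09) and without FMT-Con A libraries 1 and 3 (-0.79, adjusted p = 0.288). Without FMT-Con A libraries 1 and 3 the rise of FMT-Con A over WT was log2 1.07 (adjusted p = 0.0309).

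Cdh5 (ENSMUSG00000031871, chr8:104101625-104144511, plus strand), the cadherin of endothelial adherens junctions, read 5.49, 5.95 and 6.9 CPM in WT, 36.4, 23.6 and 17.1 CPM in Con A libraries and 24.3, 12 and 22.9 CPM in FMT-Con A. The pattern over libraries resembled that of Pecam1, with Con A library 1 and FMT-Con A libraries 1 and 3 high. The 2 genes still differed between the injected groups. Read counts of Pecam1 over Cdh5 were 0.807 to 1.04 in Con A libraries and 1.12 to 1.33 in FMT-Con A, without overlap, and 0.898 to 1.32 in WT. Cdh5 rose 4.2-fold in Con A over WT (log2 2.07, SE 0.32, edgeR adjusted p = 0.000339) and 3.23-fold in FMT-Con A (log2 1.69, SE 0.32, adjusted p = 0.00139). With FMT-Con A library 2 alone the latter was 0.97 (adjusted p = 0.0625). The difference between the injected groups was -0.38 (SE 0.3, adjusted p = 0.408), and -1.1 with library 2 alone (adjusted p = 0.21).

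Other endothelial genes were read from marker lists. Of 13 vascular endothelial markers, 2 were higher in Con A than in WT, 7 were lower and 4 did not pass, beside 32.5% higher and 30.9% lower of all tested genes, and the median log2 fold change was -0.88. Vwf, the von Willebrand factor stored in the same granules as P-selectin, rose by 2.97 (SE 0.61, edgeR adjusted p = 0.00183) to 25.4 ± 22.8 CPM (SD, n = 3), while Kdr, a receptor for VEGF, fell by 2.62 (SE 0.58, adjusted p = 0.0028). The list summed to 97.1 to 115 CPM in WT, 89.3 to 149 in Con A and, in FMT-Con A libraries 1 to 3, to 118, 70.8 and 117 CPM. Of 9 sinusoidal endothelial markers, 5 were higher and 2 lower in Con A than in WT, with Lyve1 up by 2.93 and Clec4g down by a log2 value of -2.19.

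**Figure D3:**
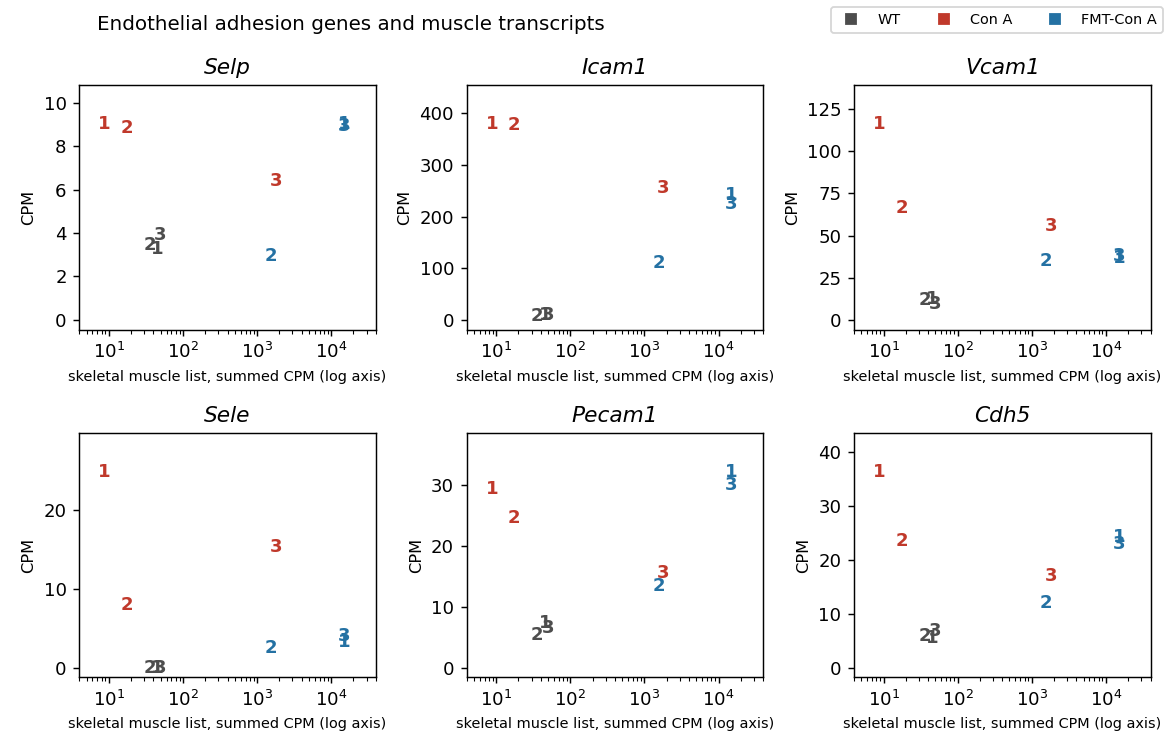
The 6 adhesion genes of the vessel wall (y axis, CPM on a linear scale) against the summed CPM of 13 skeletal muscle genes in the same library (x axis, log scale), with numbers for replicates and colours for groups. In FMT-Con A, libraries 1 and 3, at 15000 and 14900 CPM of muscle genes, are higher than library 2 in Selp, Icam1, Pecam1 and Cdh5, while Vcam1 is at 34.7 to 38.1 CPM in all 3.

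Within FMT-Con A, 4 genes of the vessel wall followed the split between the libraries. Selp, Icam1, Pecam1 and Cdh5 were far lower in library 2, the library with the least muscle RNA of that group, than in libraries 1 and 3. Sele and Vcam1 were lowest there as well, but over the narrower ranges of 2.47 to 4.04 and 34.7 to 38.1 CPM. In Con A the library with the most muscle RNA, library 3 at 1810 CPM, was instead the lowest of its group for Selp, Icam1, Vcam1, Pecam1 and Cdh5. With FMT-Con A library 2 as the only one of its group, 6 of the 9 genes still passed against WT (Sele, Icam1, Vcam1, Itgb2, Itga4 and Pecam1), in a fit that called 36.1% of tested genes. The count of genes that passed between the injected groups was 0 without them, 0 without FMT-Con A library 1, 1 without FMT-Con A library 3, 1 when only these groups were fitted, 0 with the muscle covariate, and 4 in DESeq2. Of all tested genes the same fits called 0.514%, 3.64%, 4.26%, 7.09%, 2.06% and 22.5%, against 16.8% with all libraries.

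Per kilobase of exon, the order of levels changed with the injection. The length used is that of the merged exons of all annotated transcripts, 13978 bases for Itga4 and 3052 for Itgb2. Which transcripts were expressed was not measured, so ranks between genes depend in part on the annotation. In WT the means of 3 libraries ran from Icam1 at 1.96 ± 0.362 CPM per kb (SD, n = 3) through Itgal at 1.72 ± 0.39, Itgb2 at 1.62 ± 0.305, Cdh5 at 1.45 ± 0.17, Vcam1 at 1.26 ± 0.185, Pecam1 at 1.03 ± 0.158 and Itga4 at 1.01 ± 0.246 to Selp at 0.801 ± 0.0734, with Sele at 0. Each neighbour in that order overlapped the next except Selp and Sele. In Con A, Icam1 led at 77.3 ± 16.2 CPM per kb, followed by Vcam1 at 8.92 ± 3.62, Itgb2 at 6.17 ± 0.119, Cdh5 at 6.12 ± 2.34, Sele at 5.51 ± 2.91 and Pecam1 at 3.73 ± 1.12, with Itgal, Selp and Itga4 at 2.07 ± 0.12, 1.83 ± 0.332 and 1.21 ± 0.162. Icam1 stood clear of Vcam1 there, Vcam1 of Itgb2 by a narrow margin (6.27 against 6.26), Pecam1 of Itgal and Selp of Itga4, and the other neighbours overlapped. Under FMT-Con A, Icam1 was at 44.1 ± 16.3, Cdh5 at 4.69 ± 1.61, Itgb2 at 4.67 ± 0.664, Vcam1 at 4.12 ± 0.198 and Pecam1 at 4.05 ± 1.65 CPM per kb, above Selp, Itga4, Itgal and Sele at 1.58 ± 0.787, 1.56 ± 0.236, 1.44 ± 0.187 and 1.12 ± 0.27. Here Icam1 was separate from Cdh5 and Pecam1 from Selp, and Sele had the lowest mean, although its libraries overlapped those of Itgal, Itga4 and Selp.

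Ratios of read counts within a library do not depend on library size, and they show how the genes moved against each other. Over Cdh5, Icam1 counts were 1.77, 1.13 and 1.33 in WT, 10.4, 15.9 and 15 in Con A libraries and 9.93, 9.29 and 9.83 in FMT-Con A. The 3 FMT-Con A libraries were nearly equal on this scale, library 2 included, and lay just below the lowest Con A library. Sele over Cdh5 was 0.682, 0.337 and 0.896 in Con A libraries and 0.135, 0.206 and 0.176 in FMT-Con A, again without overlap. Vcam1 over Cdh5 was 2.21, 2.02 and 1.34 in WT, 3.18, 2.8 and 3.26 in Con A libraries and 1.51, 2.9 and 1.66 in FMT-Con A, where library 2 fell among the Con A libraries and the others among WT. Selp over Cdh5 was 0.592, 0.583 and 0.564 in WT, above all injected libraries at 0.246 to 0.389. Cdh5 itself rose over WT, by 2.07 on the log2 scale in Con A and 1.69 in FMT-Con A. The 13 vascular endothelial markers had medians of -0.88 and -0.24 there. Ratios over those markers were not computed, so the values hold for Cdh5 only.

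Among the integrins, Itgal over Itgb2 was 2.21, 2.23 and 2.41 in WT, 0.716, 0.685 and 0.764 in Con A libraries and 0.561, 0.718 and 0.728 in FMT-Con A, so the beta chain had fewer reads than LFA-1's alpha chain in WT and more in every injected library. Itga4 over Itgal was 1.2, 1.26 and 1.28 in WT, 1.17, 1.22 and 1.35 in Con A libraries and 2.07, 2.28 and 2.56 in FMT-Con A. This ratio of alpha-4 to alpha-L overlapped between WT and Con A and was higher in each FMT-Con A library. Over Ptprc, the gene of the leukocyte antigen CD45, Itgb2 was 0.255, 0.209 and 0.209 in WT, 0.557, 0.53 and 0.709 in Con A libraries and 0.756, 0.697 and 0.504 in FMT-Con A, and Itga4 was 0.585 to 0.673, 0.442 to 0.731 and 0.88 to 1.14. Against WT, Ptprc had the lowest log2 value of the 6 pan-leukocyte genes, 0.53 in Con A and -0.01 in FMT-Con A. The list medians were 1.43 and 0.61. Ratios over the other pan-leukocyte genes were not computed, so these values hold for Ptprc only. Of 28 ratio comparisons, 16 had groups that did not overlap. The exact two-sided permutation test over 3 against 3 libraries cannot go below p = 0.1, the value of these 16 (0.175 after Benjamini-Hochberg adjustment over the 28), so none can pass 0.05.

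**Figure D4:**
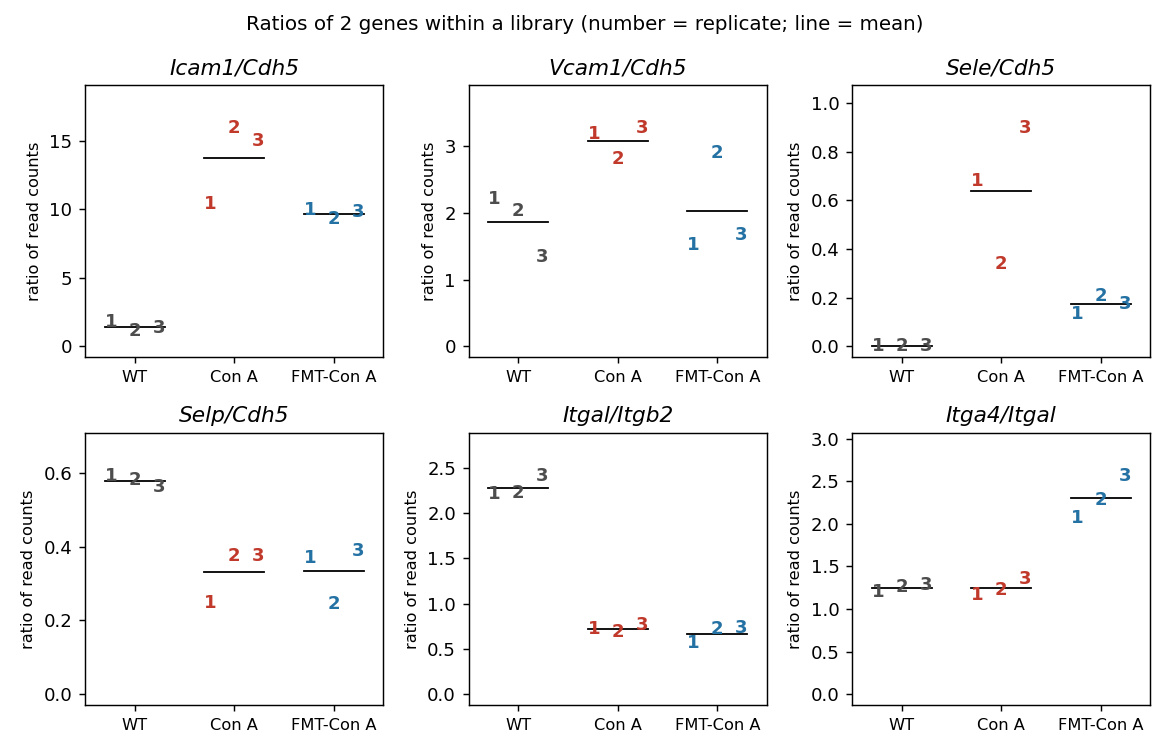
Ratios of the read counts of 2 genes in the same library (y axis, linear from 0, 1 panel per ratio) in WT, Con A and FMT-Con A (x axis), with numbers for replicates and a line at the mean. Itga4 over Itgal is 2.07 to 2.56 in FMT-Con A and 1.17 to 1.35 in the other groups, and Itgal over Itgb2 is 2.21 to 2.41 in WT and 0.561 to 0.764 in the injected libraries.

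The rest of the adhesion cascade was read from 7 lists of pathway genes, 92 identifiers in all, of which 4 of the selectin list, 2 of the immunoglobulin-family list and 1 integrin chain were below the filter on low counts, which left 85 tested. In Con A against WT, 66 of the 85 passed (77.6%), 59 higher and 7 lower, beside 63.4% of all tested genes (32.5% higher and 30.9% lower). In Con A against WT, the 16 inducers and regulators of endothelial activation all rose, with a median log2 fold change of 2.85. Ifng, which encodes interferon-gamma, rose by 6.49 (SE 0.41, edgeR adjusted p = 1.33e-06), the TNF receptor gene Tnfrsf1a by 2.58, and the NF-kappaB subunit genes Rela and Nfkb1 by 2.44 and 1.92. The list also holds genes known to restrain endothelial activation, and of these Klf2 rose by 2.94, Klf4 by 2.81, Nfkbia, the NF-kappaB inhibitor, by 2.19, and Nos3 by 1.02. The list of sheddases, which release selectins, VCAM-1 and other surface proteins from cells, and of their regulators rose in all 6 genes (median 2.47). Its largest rise, by 4.41, was that of Timp3, an inhibitor of ADAM17, and the others included Adam17 by 2.19, Adam8 by 2.78 and the ADAM17 partners Rhbdf2 and Rhbdf1 by 2.74 and 2.18. Of 14 tested genes for selectins and selectin ligands, 11 rose, none fell and 3 did not pass (median 1.1). They included the P-selectin ligand Selplg by 2.78 (SE 0.24), the E-selectin ligand and hyaluronan receptor Cd44 by 2.44, and B4galt1, a galactosyltransferase, by 1.63.

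Of 13 other immunoglobulin-family and endothelial receptors, 9 rose in Con A, none fell and 4 did not pass (median 0.9). Pvr, a ligand of DNAM-1, rose by 3.12, the junctional genes Esam and F11r by 1.83 and 1, and Cd47 by 0.9. Among 12 other integrin chains 7 rose, 1 fell and 4 did not pass (median 1.24), with Itgam, the Mac-1 partner of Itgb2, up by 3.86 (SE 0.3, edgeR adjusted p = 4.26e-06), Itga2 by 3.56, Itgb3 by 2.79 and Itgav by 1.54. The lists on integrin activation and on the adherens junction went both ways. For integrin activation 6 of 14 rose, 4 fell and 4 did not pass (median 0.19), near the 63.4% called of all tested genes, with Rap1b, Skap2 and Vav1 up by 2.03, 1.6 and 1.59, while Rasgrp2, an activator of Rap1, changed by -2.35. Of 10 adherens junction partners 4 rose, 2 fell and 4 did not pass (median 0.15): beta-catenin (Ctnnb1) rose by 1.68 and Tjp1 by 1.02, whereas Ptprb, the VE-cadherin-associated phosphatase VE-PTP, changed by -2.62 (SE 0.19, edgeR adjusted p = 2.75e-06) and Cdh2 by -1.15. Ptprb thus fell in the comparison in which Cdh5 rose.

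With the faecal transfer, 21 of the 85 tested cascade genes passed against Con A alone (24.7%, beside 16.8% of all tested genes), and all 21 were lower in the fit of all libraries. Of the inducers 6 of 16 fell and none rose (median -0.65), with Ifng at -2.09 (SE 0.29, edgeR adjusted p = 0.00353), Il1a at -1.07, Nfkb1 at -1.06 and the TNF receptor gene Tnfrsf1b at -1.03. Of the other immunoglobulin-family receptors 4 of 13 fell (Alcam -1.33, Pvr -1.27, Cd47 -0.82 and F11r -0.76), and of integrin activation 4 of 14 (Cyth1 -0.97, Vav1 -0.79, Fyb -0.64 and Rap1b -0.61). The selectin list had 2 of 14 (Tpst1 -1.42, a sulfotransferase that completes P-selectin ligands, and St3gal4 -0.8), the integrin chains 2 of 12 (Itgb3 -1.2 and Itgav -0.98), the adherens partners 2 of 10 (Ctnnb1 -0.73 and Tjp1 -0.68) and the sheddases 1 of 6 (Adam17 -1.16). The medians of these lists were -0.35, -0.31, -0.29, -0.21, -0.16 and -0.53 in that order. The 21 became 11 without FMT-Con A library 1, 13 without library 3, 13 without Con A library 1, 1 without FMT-Con A libraries 1 and 3, and 5 with the muscle covariate, and these fits called 3.64%, 4.26%, 4.39%, 0.514% and 2.06% of all tested genes. Without FMT-Con A library 2, 29 passed, 25 lower and 4 higher, beside 21.9% of all tested genes.

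Against WT, FMT-Con A libraries kept the inducers and sheddases high, 16 of 16 (median 2.47) and 6 of 6 (median 1.97). Ifng rose by 4.4, Irf1, a transcription factor of the interferon response, by 3.62, Tnfrsf1a by 2.44 and Rela by 1.79. Timp3 rose by 4.68, Rhbdf2 by 2.2, Adam8 by 2.12 and Rhbdf1 by 1.82. The selectin list had 9 of 14 higher and none lower (median 1.07), with Selplg up by 2.35, Cd44 by 1.95 and B4galt1 by 1.32. Other integrin chains had 7 of 12 higher and none lower (median 0.52), led by Itgam at 3.98, Itga2 at 2.66, Itga6 at 2.01 and Itgb3 at 1.58. Immunoglobulin-family receptors had 6 of 13 higher and 2 lower (median 0.88), with Mcam up by 1.92, Pvr by 1.85 and Esam by 1.48, and Alcam at -0.78. Integrin activation had 5 of 14 higher and 4 lower (median -0.06; Rap1b 1.42, Skap2 1.46, Rasgrp2 -1.89, Fyb -1.68), and the adherens partners 4 of 10 higher and 3 lower (median 0.35; Ctnnb1 0.95, Jup 0.65, Cdh2 -1.74, Ptprb -2.31). In all 62 of the 85 passed (72.9%, 53 higher and 9 lower), beside 59.0% of all tested genes, and with the muscle covariate 41 (48.2%), beside 29.5%. How far the single cascade genes moved without FMT-Con A libraries 1 and 3 was not examined.

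The genes whose profile over the 9 libraries lay closest to each adhesion gene were found by the root mean square difference of centred log2 CPM among 13889 genes, as a description with no test. A small count was added to every value before the logarithm. For Sele, with 0 counts in WT, that added count set the WT values, so all distances of Sele below depend on it. Nearest to Sele were Btg2 at 0.29, Hcar2 at 0.31 and Adm at 0.38, where the median over all genes compared was 3.13. For Icam1 they were Cd274, which encodes PD-L1, at 0.23, Fgf23 at 0.26 and Cd40 at 0.3 (median 2.33), and for Vcam1 Birc3, an inhibitor of apoptosis, at 0.18, Sat1 at 0.2 and Aebp2 at 0.23 (median 1.21). Cdh5 lay nearest to Esam, another endothelial junction gene, at 0.19, then Tm4sf1 and Map4k4, both at 0.22 (median 1). Pecam1 had Nhsl2 at 0.21, Psd and Hist1h2bg at 0.22 (median 1.02), and Selp had Wt1 and Tmem47 at 0.18 and Kazn at 0.19 (median 0.78). Itgb2 was closest to Mapk7 at 0.13, Arpc1b at 0.15 and March1 at 0.16 (median 0.91). Itgal was closest to Nagk at 0.11 and to Gm9042 and Slc25a33 at 0.13 (median 0.55). Itga4 was closest to Nxt1 at 0.08, Oplah at 0.13 and Fnta at 0.15 (median 0.58). Between the 9 genes, Pecam1 and Cdh5 were the closest pair at 0.25, and Sele and Itgal the farthest at 3.08.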

How the data were processed

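Liver RNA of 9 libraries (3 WT, 3 Con A, 3 FMT-Con A) was measured as read counts per gene, which the authors deposited as 1 file per library without normalization. The submitters' processing notes name CASAVA, HISAT2, featureCounts and the build GRCm38 (mm10), with versions, strand setting and treatment of multi-mapped reads not given in the sources used here. Symbols, positions and merged exon lengths came from GENCODE vM21 and promoters from RefSeq (GRCm38.p6). The genes and lists were chosen with earlier results of these data known. All 9 libraries were fitted in edgeR 4.0.16 (R 4.3.3) with TMM factors and filterByExpr (minimum count 10, total 15), which left 6 residual degrees of freedom and 17704 genes. The two-sided quasi-likelihood F test used a Benjamini-Hochberg threshold of 0.05 over all tested genes, and the SE of a log2 fold change is its size divided by the root of F. The script was tested on simulated data.

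The text names all 9 genes, up to 4 genes with the lowest p per cascade list and comparison among those past the threshold, and the 3 nearest profiles of each gene (mean of at least 1 CPM). One gene that this rule names is not reported here. Vwf, Kdr, Lyve1, Clec4g, Klf2, Klf4, Nfkbia, Nos3, Lcp1, Ptprc, Cd5l, Clec4f, Des, Colec11, Timp3 in Con A and the pairing of Ptprb with Cdh5 were chosen after their values were seen. Folds against 0 counts use a floor of 3 counts over the group. The floor covers counting error only. Ratios were tested with exact permutation tests on log2 values. Alternatives were RLE size factors, total counts, TMM without mitochondrial and muscle genes, other count filters, DESeq2 1.42.0, only the groups compared, a replicate block, leaving out libraries and, added after seeing the data, log2 of the muscle sum as a covariate. Replicate numbers were not treated as pairs in the main fit.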

Additional observations from a re-analysis of the deposited data

How the results depend on the processing

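Of 513 results (9 genes, 3 comparisons, 19 alternatives), 479 kept direction and side of the threshold, 23 lost the call, 3 gained one and 8 changed sign, and the cause was not tested. The sign changes were all in values that had not passed, except Selp in FMT-Con A against WT, which was -0.26 without FMT-Con A libraries 1 and 3. In FMT-Con A against Con A, Selp was 0.01 with total counts and 0.17 without FMT-Con A library 2 (-0.43 to 0.17 leaving out each library), Pecam1 was -0.09 without Con A library 3, -0.08 and -0.01 without FMT-Con A library 1 or 3 and -0.79 without both (up to 0.44, without library 2), and Cdh5 was 0.06 with the muscle covariate.

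Genes past the threshold in FMT-Con A against Con A numbered 2, and 4 in DESeq2, 1 when only the groups compared were fitted, 0 without FMT-Con A libraries 1 and 3, 0 with the muscle covariate and 0 to 2 when leaving out each library in turn. Of the cascade genes 21 passed there, 1 without FMT-Con A libraries 1 and 3, 5 with the covariate and 11 to 29 when leaving out each library. In FMT-Con A against WT the cascade count of 62 became 41 with the covariate, and 56 to 65 leaving out each library. The 9 genes gave 6 to 7 calls in Con A against WT and 6 to 8 in FMT-Con A against WT when leaving out each library, and the cascade lists 63 to 67 in Con A against WT. The number of ratios without overlap was 16 to 18.

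With the replicate block, 7, 2 and 7 of the 9 genes passed in Con A against WT, FMT-Con A against Con A and FMT-Con A against WT. Selp lost its call in the last (0.91, edgeR adjusted p = 0.0645). Libraries of the same number shared deviations with correlations of -0.22 to 0.34. Libraries of different numbers were not compared in this way, so whether the numbers pair the libraries was not settled. Depth limits Sele in WT, where 0 counts allow up to 0.0447 CPM over the group.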

Other observations

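The markers of other cell types held further differences beside the adhesion genes. The stellate and mesenchymal list of 7 genes summed to 140 to 200 CPM in WT, 120 to 249 in Con A and, in FMT-Con A libraries 1 to 3, to 615, 151 and 597 CPM, where the gain in the group mean lay in Des, a gene of muscle as well as stellate cells, at 4.05 ± 0.235, 30.6 ± 51.1 and 315 ± 221 CPM (SD, n = 3) in the WT, Con A and FMT-Con A groups. Of the 7 genes, 1 was lower in FMT-Con A than in Con A (Colec11, -1.43 on the log2 scale, edgeR adjusted p = 0.0164), none was higher and 6 did not pass, with Des at 3.36 (adjusted p = 0.126). Mesothelial markers summed to 4.21 to 7.31 CPM in WT, 3.64 to 9.74 in Con A libraries and 8.45 to 13.2 in FMT-Con A. The median squared difference between FMT-Con A libraries 1 and 3 was 2.54 times the sampling noise, against 10.1 and 10.3 for the other pairs of that group, 7.46 to 12.6 in Con A libraries and 3.25 to 4.94 in WT. Reads of mitochondrial genes made up 19.6 to 22.4% of the counts in WT, 5.03 to 9.96% in Con A libraries and 7.44 to 11.7% in FMT-Con A.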
